A study of Homo sapiens with 8 samples.

Results

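Interferon regulatory factors (IRFs) are transcription factors that share a DNA-binding domain and recognise repeats of the letters GAAA. The members described here, IRF1, IRF2, IRF3, IRF4, IRF5, IRF7, IRF8 and IRF9, are 8 of the 64252 genes counted in RNA of human T-cell acute lymphoblastic leukemia (T-ALL) cells with and without knockdown of LDB1. The 8 genes were chosen by their symbols, but the family as a whole was put forward with its levels and its changes after LDB1 knockdown in both cell lines already known. The members' levels and changes are therefore a description, and no p-value is given for them. All 8 symbols were found in both count tables.

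The cell lines were 6T-CEM and J.gamma1, derived from CCRF-CEM and Jurkat cells. Cells of each line received lentivirus of the pLKO.1 type with a control short hairpin RNA (sh-NC) or one against LDB1 (sh-LDB1) and were selected with puromycin, so that the control group carried vector and drug selection too. LDB1 is an adaptor protein that lets transcription factors at enhancers and promoters contact each other. Each of the 4 groups had 2 libraries, and since nothing says that they came from separate cultures, the tests measure only the spread between these libraries. The study designed several hairpins against LDB1, and which of them the sequenced cells carried is not given in the sources used here. Library totals were between 26160492 and 30604977 counts, so that 3 counts, taken here as the floor of detection, correspond to 0.098 to 0.115 CPM, the count scaled to a common library size. LDB1 itself was counted 2777 and 2996 times in the 6T-CEM controls and 1078 and 1000 times after knockdown, and 1909 and 1854 against 929 and 906 times in J.gamma1. The 10 T-lineage markers checked were detected in every group, with summed levels of 2105 to 3138 CPM. The 8 myeloid and dendritic markers summed to at most 2.95 CPM in any library, and at least 3 of them had 0 counts in every group.

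IRFs turn the sensing of viral nucleic acids and the signal of interferon receptors into transcription. IRF3, IRF5 and IRF7 are activated by kinases downstream of nucleic acid sensors and switch on interferon genes. IRF9 is part of the complex ISGF3 that answers type I interferon, IRF1 activates and IRF2 mostly opposes genes of the interferon response, and IRF4 and IRF8 work with partner proteins in the development of lymphoid and myeloid cells.

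Sequence before the annotated start was looked at where a RefSeq promoter on GRCh38.p14 was on hand, which was the case for 5 of the 8 members, IRF1, IRF4, IRF5, IRF8 and IRF9, with 9 start sites in all. The 250 bases before each start were searched on both strands for 3 motifs. GAAANNGAA is a repeat of the GAAA core that IRFs bind, TTCNNNGAA is the gamma-activated site bound by STAT dimers, and AGATAA is a site of GATA factors, which work with LDB1. No match of one motif shared bases with a match of another in these windows. Among 35116 promoters, 6.88% held GAAANNGAA, 6.57% held TTCNNNGAA and 9.17% held AGATAA. Of the 9 member windows, 1 of IRF1 and 1 of IRF9 held TTCNNNGAA, and none held either of the other motifs. The stretches below are free of annotated exons, except that of IRF9, which is limited to 30 bases around its match. Capitals mark TTCNNNGAA, which starts 124 bases before the start of IRF1 and 63 bases before that of IRF9. IRF5 and IRF8 are shown because they had the steepest changes. The IRF8 starts on hand lie 3668 and 3853 bases downstream of the start of the main annotated transcript, within the gene. The stretch shown belongs to the first of them. The bases before the main IRF8 start were thus not searched. IRF5 had starts 290, 2743 and 3341 bases downstream as well as its main start, which is the one shown.
IRF1 (chr5:132490778-132491023, minus strand): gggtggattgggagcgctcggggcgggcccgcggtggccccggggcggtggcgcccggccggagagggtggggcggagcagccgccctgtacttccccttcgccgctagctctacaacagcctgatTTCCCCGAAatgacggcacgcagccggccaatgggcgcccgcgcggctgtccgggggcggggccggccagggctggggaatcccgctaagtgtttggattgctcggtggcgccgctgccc
IRF9 (chr14:24161192-24161221, plus strand): accacgtgatTTCTGGGAAaaggccctccc
IRF5 (chr7:128937835-128937926, plus strand): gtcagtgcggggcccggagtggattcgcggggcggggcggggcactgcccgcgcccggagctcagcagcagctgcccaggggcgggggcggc
IRF8 (chr16:85902580-85902688, plus strand): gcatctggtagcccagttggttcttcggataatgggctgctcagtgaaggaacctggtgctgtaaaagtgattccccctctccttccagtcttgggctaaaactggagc

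The family split into 3 abundant members and 5 that were low. Levels between genes are compared here as mean CPM per kilobase of merged exons. IRF3 stood first in every group, with 11.4 ± 0.44 (SD, n = 2) in 6T-CEM controls and 11.8 ± 0.69 (SD, n = 2) in J.gamma1 controls. IRF2 came next with 4.68 ± 0.054 and 7.83 ± 0.16 (SD, n = 2 each), ahead of IRF1 with 3.66 ± 0.15 and 4.96 ± 0.14 (SD, n = 2 each). In all 4 groups the libraries of these 3 genes did not overlap. Their order was not the same for every definition of length: IRF1 stood above IRF2 in both control groups when the longest transcript was used. The other members lay several-fold lower or more. IRF7 had 0.442 ± 0.022 and 0.690 ± 0.21, IRF9 0.309 ± 0.18 and 0.626 ± 0.10, IRF5 0.173 ± 0.014 and 0.388 ± 0.33, and IRF8 0.0845 ± 0.019 and 0.201 ± 0.022 CPM per kilobase in the 2 control groups (SD, n = 2 each). Neighbours among IRF5, IRF7 and IRF9 did not differ beyond their spread in J.gamma1 controls. IRF4 was last of the 8 in the controls, at 0.0124 ± 0.018 and 0.0238 ± 0.0036 (SD, n = 2 each). With LDB1 knockdown IRF8 moved from rank 7 to rank 5 in both lines.

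**Figure D1:**
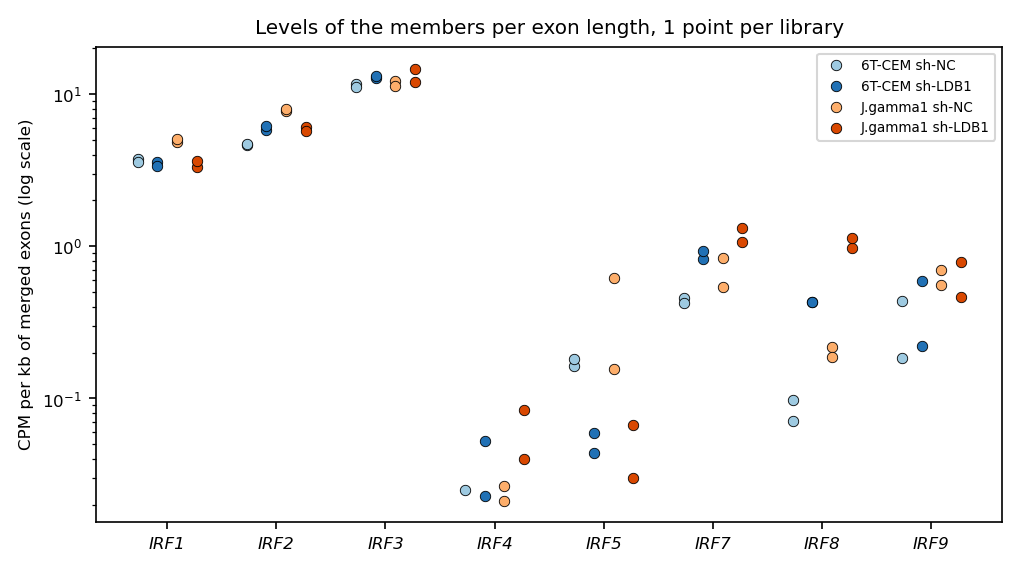
Level of each member in every library as CPM per kilobase of merged exons, on a log scale, with 1 colour per group. IRF1, IRF2 and IRF3 lie above 3 in all libraries, and every value of the other members is lower. The 6T-CEM sh-NC library with 0 counts of IRF4 cannot be drawn on this scale.

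In both lines IRF8 was about 5-fold higher in LDB1-knockdown cells and IRF7 was higher, while IRF5 was lower. The calls of IRF7 and IRF5, unlike that of IRF8, depended on single libraries and on the method. DESeq2 called IRF7 in neither line and IRF5 only in J.gamma1. IRF2 was higher in 6T-CEM and lower in J.gamma1, IRF1 was lower in J.gamma1, and IRF3 and IRF9 were not called in either line. Calls were made with edgeR's quasi-likelihood test where the p adjusted over all genes tested was under 0.05. In 6T-CEM 7 of the 8 members passed the filter on low counts, and 3 were called higher and 1 lower, where 15.1% and 16.2% of all genes tested were called in these directions. In J.gamma1 the same 7 members passed, and 2 were called higher and 3 lower, where 25.0% and 26.5% of all genes were. With a change beyond 2-fold added to the rule, IRF8 was called higher and IRF5 lower in each line. The share of all genes past that rule was 2.74% higher and 2.39% lower in 6T-CEM, and 6.67% higher and 7.19% lower in J.gamma1. Libraries of the groups compared did not overlap for 5 of the 7 members in 6T-CEM and for 5 of the 7 in J.gamma1, where 65.3% and 75.9% of all genes showed the same. IRF4 did not pass the filter. These are bulk measurements, in which fewer cells with a transcript and less transcript per cell cannot be told apart.

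**Figure D2:**
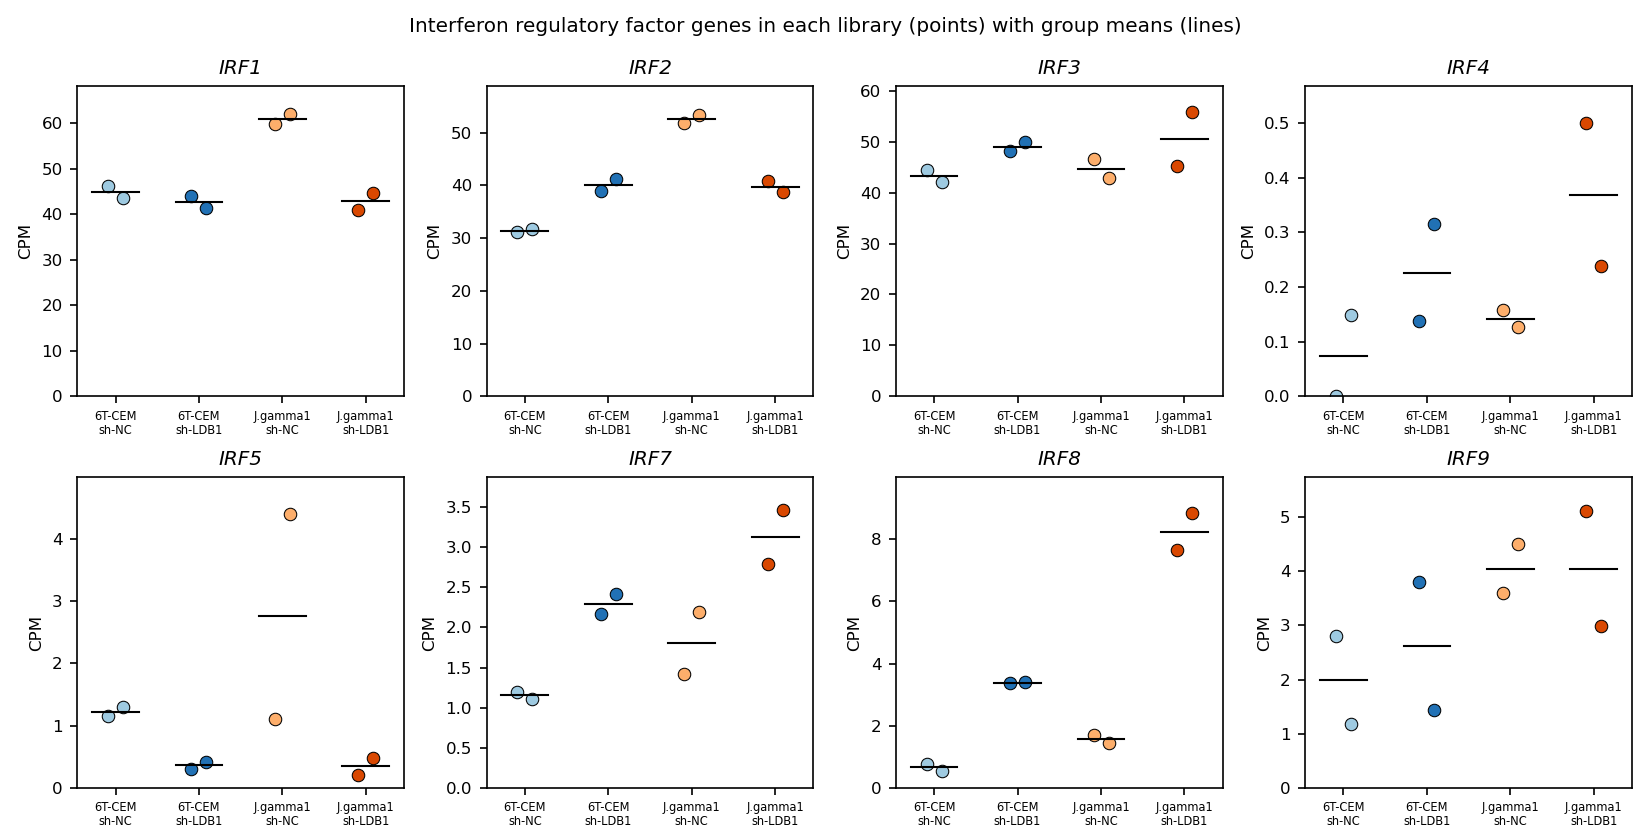
CPM of 8 members in each library (points, 2 per group) with the group mean (line), each panel on its own axis from 0. IRF8 and IRF7 are higher and IRF5 lower with sh-LDB1 in both lines, IRF2 moves in opposite directions, and the points of IRF9 overlap within each line.

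IRF1 (ENSG00000125347, chromosome 5, 132440440 to 132508719, minus strand) is an activator of interferon-response genes. Its counts in 6T-CEM were 1198 and 1174 in controls and 1284 and 1184 in knockdown cells. In J.gamma1 they were 1894 and 1956 in controls and 1145 and 1315 in knockdown cells. The groups overlapped in 6T-CEM once scaled to library size, and in J.gamma1 both knockdown libraries lay below both controls. Its level was 44.8 ± 1.80 CPM against 42.7 ± 1.87 CPM (SD, n = 2 each) in 6T-CEM, a log2 fold change of -0.07 (SE 0.081). In J.gamma1 it went from 60.9 ± 1.66 to 42.8 ± 2.64 CPM (SD, n = 2 each), a log2 fold change of -0.50 (SE 0.072). The change in J.gamma1 was thus to 0.706 of the control level. IRF1 shares 2805 exon bases with the antisense gene IRF1-AS1, of which 580 lie in its main transcript, and whether the counting used the strand is not stated. IRF1-AS1 had 206, 230, 235 and 217 counts in 6T-CEM and 369, 443, 262 and 260 in J.gamma1, with the sh-NC libraries given first. Its log2 fold change of -0.07 (SE 0.17) in 6T-CEM and -0.49 (SE 0.14) in J.gamma1 was close to that of IRF1. Reads of the pair cannot be told apart in the shared bases without strand. The call of IRF1-AS1 in J.gamma1 was lost without sh-NC replicate 2 or without sh-LDB1 replicate 2 (log2 fold changes -0.36 and -0.45).

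IRF2 (ENSG00000168310, chromosome 4, 184385702 to 184474558, minus strand) binds the same sites as IRF1 and mostly represses. The 6T-CEM controls gave 810 and 854 counts and the knockdown cells 1136 and 1180. The J.gamma1 controls gave 1646 and 1683 counts and the knockdown cells 1143 and 1140. Both knockdown libraries were above both controls in 6T-CEM and below both in J.gamma1. Its level rose from 31.4 ± 0.37 to 40.1 ± 1.63 CPM (SD, n = 2 each) in 6T-CEM, a log2 fold change of 0.36 (SE 0.085), and fell from 52.6 ± 1.06 to 39.8 ± 1.51 CPM (SD, n = 2 each) in J.gamma1, a log2 fold change of -0.40 (SE 0.072). After knockdown the levels in the 2 lines lay within 1 SD of each other. No annotated gene shares exons with IRF2. The calls of IRF2 in both lines and of IRF1 in J.gamma1 held with each library left out in turn and under each of the 9 other settings tried. The settings among them that summed overlapping genes did not alter the counts of IRF2, and only the sum with IRF1-AS1 altered those of IRF1.

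Set against each other within a library, which needs no scaling between libraries, IRF1 had 1.48 and 1.37 counts per count of IRF2 in 6T-CEM controls and 1.13 and 1.00 in knockdown cells. In J.gamma1 the ratio was 1.15 and 1.16 in controls and 1.00 and 1.15 with sh-LDB1. The ratio was lower in both knockdown libraries of 6T-CEM and overlapped in J.gamma1, where both genes fell.

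IRF3 (ENSG00000126456, chromosome 19, 49659569 to 49665875, minus strand) is the widely expressed factor that TBK1 activates. It had 1154 and 1133 counts in 6T-CEM controls and 1402 and 1429 with sh-LDB1. In J.gamma1 it had 1477 and 1351 counts in controls and 1265 and 1641 with sh-LDB1. The knockdown libraries were above the controls in 6T-CEM, and the groups overlapped in J.gamma1, where the knockdown libraries stood furthest apart. The log2 fold change was 0.19 (SE 0.079) and 0.18 (SE 0.10), and neither was called. Without sh-LDB1 replicate 1 the value in J.gamma1 was 0.33 and was called. IRF3 shares 734 exon bases with BCL2L12 on the opposite strand, which rose by 0.49 (SE 0.096) in 6T-CEM and 0.79 (SE 0.074) in J.gamma1 on the log2 scale. The part of those reads in the value of IRF3 was not tested.

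IRF7 (ENSG00000185507, chromosome 11, 612553 to 615983, minus strand) is the interferon-inducible partner of IRF3 and the main driver of interferon alpha genes. It had 31 and 30 counts in 6T-CEM controls and 63 and 69 in knockdown cells. In J.gamma1 it had 45 and 69 counts in controls and 78 and 102 in knockdown cells. Both knockdown libraries lay above both controls in each line. The level went from 1.15 ± 0.056 to 2.29 ± 0.18 CPM in 6T-CEM and from 1.80 ± 0.54 to 3.12 ± 0.48 CPM in J.gamma1 (SD, n = 2 each), log2 fold changes of 0.99 (SE 0.32) and 0.80 (SE 0.29). In 6T-CEM the call was lost whichever of the 4 libraries was left out (0.90 to 1.07). In J.gamma1 it was lost without sh-NC replicate 1 (0.52), sh-LDB1 replicate 1 (0.95) or sh-LDB1 replicate 2 (0.64) and kept without sh-NC replicate 2. IRF7 was called in neither line by DESeq2 (0.995 and 0.81) or without a filter on low counts (0.98 and 0.80). The ratio of IRF3 to IRF7 counts was 37.2 and 37.8 in 6T-CEM controls and 22.3 and 20.7 after knockdown. In J.gamma1 it was 32.8 and 19.6 in controls and 16.2 and 16.1 after knockdown, without overlap in either line.

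IRF5 (ENSG00000128604, chromosome 7, 128937457 to 128950038, plus strand) acts downstream of endosomal Toll-like receptors. Its counts were 30 and 35 in 6T-CEM controls and 9 and 12 in knockdown cells. In J.gamma1 they were 35 and 139 in controls and 6 and 14 in knockdown cells. The groups did not overlap in either line, and J.gamma1 sh-NC replicate 2 stood far above the other 7 libraries. The level fell from 1.23 ± 0.10 to 0.364 ± 0.078 CPM in 6T-CEM and from 2.76 ± 2.34 to 0.345 ± 0.18 CPM in J.gamma1 (SD, n = 2 each), log2 fold changes of -1.74 (SE 0.49) and -2.97 (SE 0.83). Without J.gamma1 sh-NC replicate 2 the value in J.gamma1 was -1.66 and was not called, nor was it without sh-LDB1 replicate 1 (-2.52) or replicate 2 (-3.65). In 6T-CEM the call was lost without sh-NC replicate 1 (-1.82), sh-NC replicate 2 (-1.65) or sh-LDB1 replicate 1 (-1.53), by DESeq2 (-1.75), and in a fit to all 8 libraries (-1.74). No annotated gene shares exons with IRF5, IRF7 or IRF8.

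IRF8 (ENSG00000140968, chromosome 16, 85899116 to 85922606, plus strand) is a factor of B cells, dendritic cells and monocytes that binds DNA with partners such as SPI1 and BATF3. It had 20 and 15 counts in 6T-CEM controls and 98 and 97 in knockdown cells. In J.gamma1 it had 54 and 46 counts in controls and 214 and 260 in knockdown cells. Both knockdown libraries stood far above both controls in each line, and the replicates lay close together. The level rose from 0.663 ± 0.15 to 3.38 ± 0.022 CPM in 6T-CEM (SD, n = 2 each), a log2 fold change of 2.35 (SE 0.33) or 5.09-fold. In J.gamma1 it rose from 1.58 ± 0.17 to 8.24 ± 0.83 CPM (SD, n = 2 each), a log2 fold change of 2.38 (SE 0.21) or 5.22-fold. The folds nearly coincided although the levels differed between the lines. IRF8 remained called with each library left out and under each of the 9 other settings tried. The settings among them that summed overlapping genes did not alter the counts of IRF8. The 8 myeloid and dendritic markers summed to 1.58 to 1.71 CPM in 6T-CEM controls and 1.75 to 2.95 with sh-LDB1, and to 1.36 to 1.65 and 1.09 to 1.68 CPM in J.gamma1. The 6 B-lineage markers summed to 34.0 to 34.7 CPM and 43.1 to 46.5 CPM in 6T-CEM and to 69.7 to 71.7 CPM and 79.23 to 79.25 CPM in J.gamma1, and 2 of them had 0 counts in every group but J.gamma1 controls, where 4 did. Of the B-lineage markers tested, CD79A rose by 0.74 (SE 0.094) in 6T-CEM and 0.20 (SE 0.059) in J.gamma1 on the log2 scale, both called. CD79B had -0.99 (SE 0.21) in 6T-CEM, called, and -0.39 (SE 0.21) in J.gamma1, not called. PAX5 had -0.63 (SE 0.29) in 6T-CEM, not called. Among the myeloid and dendritic markers only MPO in 6T-CEM was called, from 9 and 8 counts to 38 and 32. The part of other cell types in the change of IRF8 was not tested.

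IRF8 and IRF5 changed in opposite directions in each line, so that a shift of their ratio follows from the changes given above. There were 0.667 and 0.429 counts of IRF8 per count of IRF5 in 6T-CEM controls and 10.9 and 8.08 in knockdown cells. In J.gamma1 the ratio was 1.54 and 0.331 in controls and 35.7 and 18.6 in knockdown cells. IRF5 had the higher count in 3 of the 4 control libraries, and IRF8 in all 4 knockdown libraries.

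**Figure D3:**
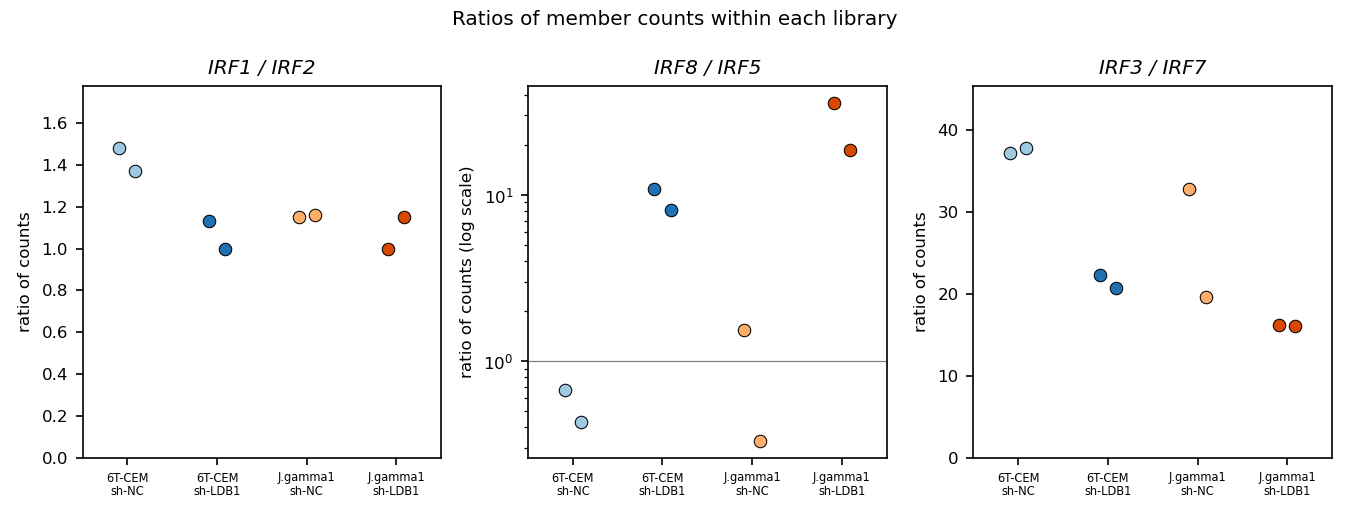
Ratio of the counts of 2 members within each library, for IRF1 to IRF2, IRF8 to IRF5 (log scale, grey line at equal counts) and IRF3 to IRF7, with 2 points per group. The IRF8 to IRF5 ratio is at most 1.54 in controls and at least 8.08 with sh-LDB1.

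IRF4 (ENSG00000137265, chromosome 6, 391739 to 411443, plus strand), the relative of IRF8 that acts in activated lymphocytes and plasma cells, was at the edge of detection. It had 0 and 4 counts in 6T-CEM controls, 4 and 9 in knockdown cells, 5 and 4 in J.gamma1 controls and 14 and 7 in knockdown cells. It did not pass the filter on low counts in any comparison, so no fold is given.

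IRF9 (ENSG00000213928, chromosome 14, 24161234 to 24168043, plus strand) is the DNA-binding part of ISGF3. Its counts were 73 and 32 in 6T-CEM controls and 111 and 41 in knockdown cells. In J.gamma1 they were 114 and 142 in controls and 143 and 88 in knockdown cells. Replicates differed more than groups, and the groups overlapped in both lines. The log2 fold change was 0.40 (SE 0.65) in 6T-CEM and 0.01 (SE 0.27) in J.gamma1. An annotated read-through gene, ENSG00000259529, shares 1513 of the 1626 bases of the main IRF9 transcript on the same strand and held more counts than IRF9 in every library. It had 208 and 234 counts in 6T-CEM controls and 376 and 510 with sh-LDB1, and 504 and 393 against 286 and 627 in J.gamma1. How the counting divided the shared reads is not stated, so both values are uncertain. With the pair summed, a choice made after the values were seen, the log2 fold change in 6T-CEM was 0.80 (SE 0.14) and was called, and in J.gamma1 it was 0.13 and was not.

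**Figure D4:**
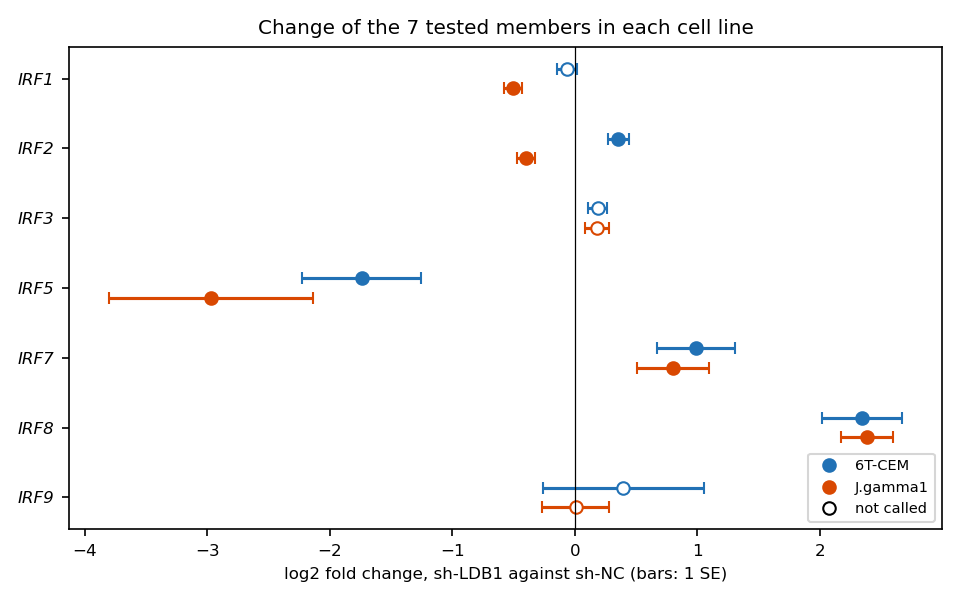
Log2 fold change of the 7 tested members, sh-LDB1 against sh-NC, in 6T-CEM and J.gamma1 with bars of 1 SE. Open points were not called. IRF8 lies at 2.35 and 2.38, IRF5 at -1.74 and -2.97, and IRF2 on opposite sides of 0.

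How far the changes differed between the lines was computed in a fit to all 8 libraries. The change in J.gamma1 minus that in 6T-CEM was -0.44 (SE 0.10) for IRF1 and -0.76 (SE 0.10) for IRF2 on the log2 scale, and these 2 of the 7 members tested were called, where 24.4% of all genes were. For IRF3 (-0.01, SE 0.13), IRF8 (0.04, SE 0.42), IRF7 (-0.19, SE 0.43) and IRF9 (-0.40, SE 0.74) the differences were smaller than their errors. IRF5 had a difference of -1.23 (SE 0.96). The contrasts share their control libraries with those of each line. The knockdown itself was of unequal depth. LDB1 had a log2 fold change of -1.60 (SE 0.071) in 6T-CEM and -0.89 (SE 0.075) in J.gamma1, from 109 and 59.5 CPM in the controls. The part of this in the differences was not tested.

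The levels in control cells of the lines, J.gamma1 against 6T-CEM, were set side by side in the same fit. They too were known when the family was put forward, so that these values describe the members. All 7 tested members had a higher mean in J.gamma1, except IRF3 (-0.01) without J.gamma1 sh-NC replicate 1 and IRF5 (-0.15) without replicate 2, and 3 members were called, where 65.7% of all genes were called in either direction. IRF2 was higher by 0.74 on the log2 scale (SE 0.071). IRF1 was higher by 0.44 (SE 0.073) and IRF8 by 1.25 (SE 0.29), with the libraries of the lines apart for all 3. IRF3 differed by 0.05 (SE 0.095), IRF7 by 0.64 (SE 0.32), IRF5 by 1.16 (SE 0.57) and IRF9 by 1.02 (SE 0.53), and these were not called. Among them the libraries of the lines were apart for IRF7 and IRF9 as well, and overlapped for IRF3 and IRF5. The share of all genes with libraries apart was not computed for the control cells. Without J.gamma1 sh-NC replicate 1, IRF5 (1.84) and IRF7 (0.93) were called too, and without 6T-CEM sh-NC replicate 1 IRF9 (1.76) was. Scaling by library totals alone raised the median over all genes by 0.144, from 0.045 to 0.189, and with it IRF7 was called (0.785). The line cannot be told apart from anything else in which the libraries of the 2 tables differed.

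The genes around the family were taken from 6 lists set by textbook role. Interferon genes themselves were at or near the floor: of 8 genes none passed the filter in either line, and the highest count was 6, of IFNL1 in a 6T-CEM control. Among sensors, adaptors and kinases upstream of IRF3, IRF5 and IRF7, 16 of 19 were tested, with 4 higher, 0 lower and 12 not called in 6T-CEM and 5 higher, 5 lower and 6 not called in J.gamma1, against 15.1% of all genes higher and 16.2% lower in 6T-CEM and 25.0% and 26.5% in J.gamma1. Their median log2 fold change was 0.08 and 0.01, beside 0.003 and 0.00 over all genes. TLR9, the endosomal receptor of unmethylated DNA, had 698 and 740 counts in 6T-CEM controls and 2135 and 2247 after knockdown, a log2 fold change of 1.49 (SE 0.079). In J.gamma1 it had 6 and 7 counts against 139 and 132, a log2 fold change of 4.50 (SE 0.34). STING1, the adaptor of cytosolic DNA sensing, rose by 0.41 (SE 0.083) and 1.06 (SE 0.079), and TLR3, a receptor of double-stranded RNA, by 1.60 (SE 0.24) in J.gamma1. TBK1, the kinase that activates IRF3, fell by 0.30 (SE 0.073) on the log2 scale in J.gamma1. IFIH1 in 6T-CEM (0.66), IRAK4 (-0.24) and TRAF3 (-0.16) in J.gamma1 were called as well. IFIH1 lost its call without sh-NC replicate 1, sh-LDB1 replicate 1 or sh-LDB1 replicate 2 (0.46 to 0.75), and IRAK4 and TRAF3 lost theirs without sh-NC replicate 2 or either sh-LDB1 library (-0.25 to -0.17 and -0.19 to -0.13). DESeq2 called none of these 3, the fit without a filter called neither IFIH1 nor TRAF3, and scaling by library totals did not call TRAF3.

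Of the interferon receptors and the JAK-STAT proteins that work with IRF9 and upstream of IRF1, 12 of 13 were tested in 6T-CEM, with 2 higher, 1 lower and 9 not called, and 13 in J.gamma1, with 4 higher, 4 lower and 5 not called. Over all genes 15.1% were higher and 16.2% lower in 6T-CEM, and 25.0% and 26.5% in J.gamma1. The median was 0.05 in each line. SOCS1, the feedback inhibitor of JAK kinases, had 35 and 37 counts in 6T-CEM controls and 256 and 274 after knockdown, a log2 fold change of 2.75 (SE 0.22). STAT2, a partner of IRF9, had 0.05 (SE 0.12) and -0.06 (SE 0.077) and was not called. IFNGR1, the ligand-binding chain of the interferon gamma receptor, fell in both lines (-0.80, SE 0.11, and -0.68, SE 0.074). In J.gamma1 IFNGR2 (-0.55, SE 0.10) and IL10RB (-0.48, SE 0.084), further receptor chains, were lower, IFNLR1 (1.09, SE 0.28) was higher, and JAK2 was called higher (0.33) except without sh-NC replicate 2 (0.27), without sh-LDB1 replicate 1 (0.29) or by DESeq2 (0.34).

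Of 10 DNA-binding partners of IRF4 and IRF8 and co-repressors of IRF2, 8 were tested. In 6T-CEM 2 were higher, 5 lower and 1 not called (median -0.32), and in J.gamma1 4 were higher, 2 lower and 2 not called (median 0.34), beside 15.1% higher and 16.2% lower of all genes in 6T-CEM and 25.0% and 26.5% in J.gamma1. BATF3, which pairs with IRF8 in dendritic cells, fell by 1.07 (SE 0.15) on the log2 scale in 6T-CEM and by 0.60 (SE 0.12) in J.gamma1, while IRF8 was higher in both. SPI1, the other classical partner of IRF8, had 33 and 47 counts in 6T-CEM controls and 12 and 12 after knockdown, a log2 fold change of -1.84 (SE 0.45), called except without sh-NC replicate 2 (-1.59), and 0 counts in all J.gamma1 libraries. The co-repressor IRF2BP2 fell in both lines, by 0.40 (SE 0.073) on the log2 scale in 6T-CEM and by 1.26 (SE 0.052) in J.gamma1, where it went from 7932 and 7428 counts to 2811 and 2973. Its relative IRF2BPL rose in both lines (0.40, SE 0.075, and 0.80, SE 0.059). BATF (1.23, SE 0.15) and IKZF3 (0.99, SE 0.19) were higher in J.gamma1. In 6T-CEM IRF2BP1 was called higher (0.26) except without sh-NC replicate 1, sh-NC replicate 2 or sh-LDB1 replicate 2 (0.21 to 0.29). IKZF1 was called lower there (-0.24) except without sh-NC replicate 2 (-0.16) or sh-LDB1 replicate 1 (-0.19).

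Targets of ISGF3 and IRF7, 32 genes of the type I interferon response, moved both ways. In 6T-CEM 31 were tested, with 8 higher, 9 lower and 14 not called and a median log2 fold change of 0.04, where 15.1% of all genes were higher and 16.2% lower. In J.gamma1 30 were tested, with 17 higher, 6 lower and 7 not called and a median of 0.38, where 25.0% of all genes were higher and 26.5% lower. IFI44 rose in both lines, from 525 and 463 counts to 1050 and 1068 in 6T-CEM (0.98, SE 0.10) and from 37 and 37 to 168 and 199 in J.gamma1 (2.45, SE 0.23). EPSTI1 fell in both (-1.20, SE 0.17, and -2.06, SE 0.21), and so did CMPK2, a mitochondrial nucleotide kinase (-1.04, SE 0.089, and -1.81, SE 0.12). In J.gamma1 IFIT3, an RNA-binding effector, rose from 22 and 14 counts to 99 and 127 (2.78, SE 0.33), the membrane protein BST2 by 1.28 (SE 0.085), and OASL fell by 1.54 (SE 0.29) on the log2 scale. In 6T-CEM DDX60 (0.69, SE 0.10) was higher and XAF1 (-0.69, SE 0.13) lower. The antiviral GTPase MX1 was called higher there (0.82) except without sh-NC replicate 2 (0.45), sh-LDB1 replicate 1 (0.77) or sh-LDB1 replicate 2 (0.87), and also not by DESeq2, without a filter on low counts or in the fit to all 8 libraries.

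Of 20 targets of IRF1 in the type II interferon response 17 were tested in 6T-CEM, with 3 higher, 2 lower and 12 not called (median 0.04), and 15 in J.gamma1, with 3 higher, 3 lower and 9 not called (median 0.13). The shares over all genes were 15.1% higher and 16.2% lower in 6T-CEM and 25.0% and 26.5% in J.gamma1. TNFSF10, the death ligand TRAIL, was lower in both lines (-1.08, SE 0.18, and -0.92, SE 0.15). IL15, a cytokine gene, fell from 121 and 104 counts to 40 and 40 in J.gamma1 (-1.34, SE 0.26), where IRF1 was lower too, and NLRC5, an activator of MHC class I genes, fell by 0.85 (SE 0.13) on the log2 scale in 6T-CEM. The peptide-loading protein TAPBP rose by 0.76 (SE 0.10) and WARS1 by 0.23 (SE 0.058) in J.gamma1, and XRN1 fell by 0.30 (SE 0.068). GBP5 in 6T-CEM (0.42) lost its call without sh-NC replicate 1 and in the fit to all 8 libraries (0.41 in each). TAPBP there (0.34) lost it without sh-NC replicate 1 or either sh-LDB1 library (0.22 to 0.40), by DESeq2 and without a filter.

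**Figure D5:**
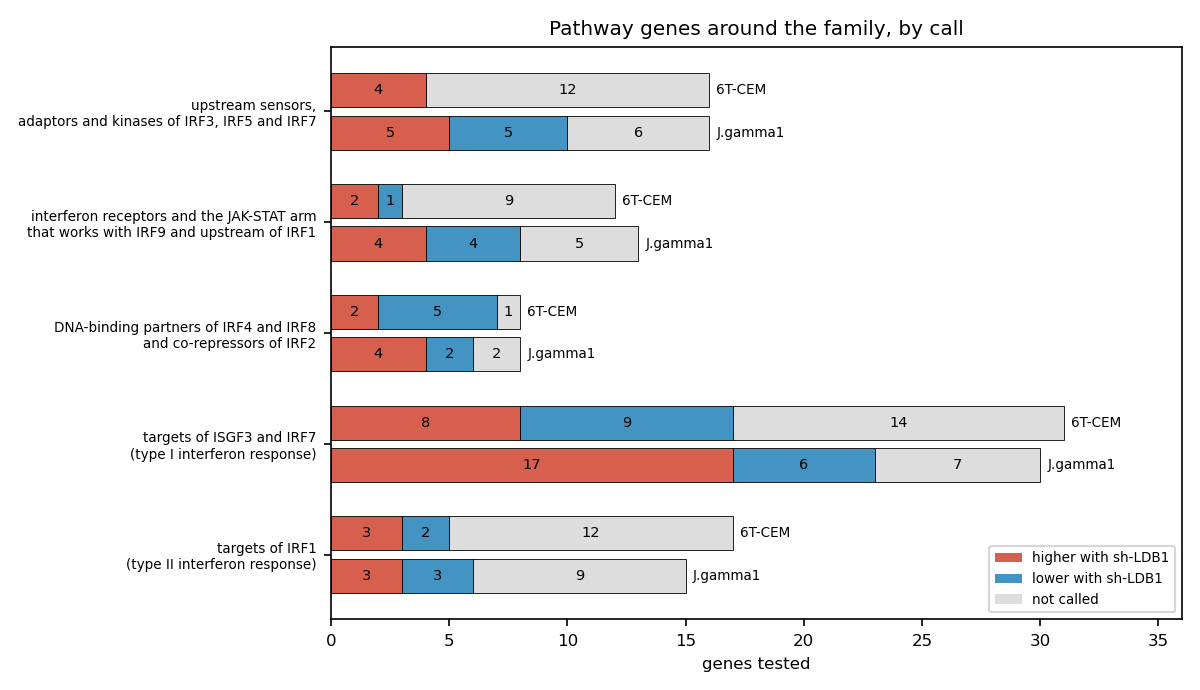
Genes called higher, called lower and not called with sh-LDB1 in 5 lists around the family, in 6T-CEM and J.gamma1, with the number of genes tested on the horizontal axis. The targets of ISGF3 and IRF7 have 17 higher of 30 in J.gamma1 and 8 of 31 in 6T-CEM. Interferon genes are left out because none could be tested.

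Across the 8 libraries, the gene with the pattern nearest to a member was found among 13633 genes (13634 for IRF5) with a mean of at least 50 counts, by the root mean square difference of centred log2 CPM. For IRF1 these were YIPF3 (0.0462), GPS2 (0.0474) and LRRC61 (0.0507), where IRF1 itself varied with an SD of 0.217. IRF3 was nearest to VPS25 (0.0598, SD 0.123). The low members varied more themselves, and the differences to their nearest genes were larger as well. These genes were PPP1R32 for IRF7 (0.147, SD 0.535) and CPLX1 for IRF8 (0.272, SD 1.305). Genes without a symbol were nearest to IRF5 (ENSG00000275779, 0.469, SD 1.206) and IRF9 (ENSG00000223618, 0.350, SD 0.687). The differences were not scaled to the SD of the member, so they do not rank how close the neighbours were. The libraries share only 4 groups, so that many genes can come this near.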

How the data were processed

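RNA of 6T-CEM and J.gamma1 cells was sequenced with paired ends on an Illumina instrument. Per the study's methods and the submitters' processing notes, HISAT2 2.2.0 aligned the reads to hg38 and StringTie quantified genes. The authors deposited 2 tables, 1 per line, of whole-number counts per gene that were not normalized. The annotation release, the strand setting and the treatment of reads that match several genes are not given in the sources used here.

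Of 64252 genes, 56105 were matched to a symbol through GENCODE release 44 (GRCh38). Each line was fitted by itself with edgeR 4.0.16 in R 4.3.3 (TMM, filterByExpr, robust quasi-likelihood fit, Benjamini-Hochberg adjustment over the 16059 genes tested in 6T-CEM and the 17215 tested in J.gamma1). Differences between lines came from a fit to all 8 libraries (18552 genes). Each SE is the size of the log2 fold change over the root of F. The steps were tested on simulated data, but no outcome of that test is given here. It therefore says nothing about how reliable the calls of members with low counts, such as IRF5, IRF7 and IRF9, are. Replicates of a group had a Pearson r of 0.986 to 0.987 and differed beyond sampling noise. The floor covers counting error only.

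The members and the gene lists were chosen with earlier results of these data known. Genes named are the 8 members, LDB1, genes whose exons overlap a member, STAT2, SPI1, BATF3, the nearest patterns, and per list and line at most 3 called genes higher and 3 lower, with the largest changes among those whose groups did not overlap and whose mean normalized count was 50 or more. Some genes that this rule takes are not reported here. Alternatives were RLE factors, library totals only, DESeq2 1.42.0, other filters, the replicate block, overlapping genes summed, 1 fit to all libraries, other gene lengths and leaving out each library.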

Additional observations from a re-analysis of the deposited data

Results flagged for a closer look

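The changes of IRF1 and IRF2 after LDB1 knockdown differed between the lines in the fit to all 8 libraries. The change in J.gamma1 minus that in 6T-CEM was -0.44 (SE 0.10) for IRF1 and -0.76 (SE 0.10) for IRF2 on the log2 scale. IRF2 was higher with sh-LDB1 in both 6T-CEM libraries and lower in both J.gamma1 libraries. Both differences remained called with each of the 8 libraries left out, between -0.51 and -0.38 for IRF1 and between -0.80 and -0.70 for IRF2. Groups of 2 libraries are too small to screen for a library that stands apart. LDB1 itself fell further in 6T-CEM (-1.60) than in J.gamma1 (-0.89), so the changes compared follow knockdowns of unequal depth.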

How the results depend on the processing

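Of 224 member values under settings that kept all libraries, 212 kept their direction and their side of the threshold, 6 lost a call, 4 gained one and 2 changed sign. Of 168 values with 1 library left out, 134 did, 13 lost a call, 4 gained one and 17 changed sign. In such fits the lone library is assumed to vary like the other groups. Some values of both sets could hardly move. Summing overlapping genes left the counts of the other members as they were. Leaving out an sh-LDB1 library left the control libraries of both lines as they were. The number of members called in 6T-CEM was 4, but 2 by DESeq2 and 2 to 3 with a library left out. Those past 2-fold there were 2, but 1 by DESeq2, 1 in the fit to all 8 libraries and 1 to 2 with a library left out, while with library totals only 5 were called and 3 were past 2-fold. In J.gamma1 5 members were called and 3 to 4 were with a library left out, and past 2-fold 2 and 1 to 2. Between the control cells 3 were called and 3 to 5 with a library left out. By DESeq2 IRF5 lost its call in 6T-CEM and IRF7 in both lines, and without a filter IRF7 lost both. With library totals only, IRF3 was called in 6T-CEM (0.225). The cause was not tested.

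No shared effect of the replicate number was seen (same-numbered deviations correlated by -0.018 in 6T-CEM and by -0.036 in J.gamma1). These values cannot tell whether same-numbered libraries were prepared together. With the replicate block, 4 members of the family were called in 6T-CEM, 5 were in J.gamma1, IRF9 changed sign in J.gamma1 (-0.028), and IRF9 was called between the control cells (1.164). IRF9 in J.gamma1 was also -0.001 in the fit to all 8 libraries. With a library left out, values that changed sign ranged from -0.466 to 1.146 for IRF9 and -0.102 to 0.219 for STAT2 in 6T-CEM, and from -0.43 to 0.347 for IRF9 in J.gamma1. Between the control cells the range was -0.01 to 0.112 for IRF3 and -0.148 to 1.844 for IRF5. The difference in change ranged from -0.168 to 0.134 for IRF3, -1.918 to 0.08 for IRF5, -0.473 to 0.149 for IRF7, -0.203 to 0.259 for IRF8 and -1.131 to 0.479 for IRF9. In 6T-CEM 36 pathway genes were called, and 26 to 36 over all other settings. In J.gamma1 53 were, and 41 to 54 over the others. Over all genes the SE had a median of 0.125 (6T-CEM) and 0.119 (J.gamma1), and the members with low counts had SEs several times that.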
